A study of Mus musculus with 14 samples.

Results

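Scel, Cemip and Prss27 are 3 genes that were close to silent in heart nuclei without virus and high in nuclei that had received YAP5SA. They are 3 of the 54446 genes counted, found by matching gene IDs to GENCODE vM21 symbols on GRCm38, and they were chosen by their CPM (counts scaled to the library's size): near 1 CPM in Control with a large rise in YAP5SA. Their levels in these 2 groups are therefore given as a description, with no test. The comparison of YAP5SA_MEF2A with MEF2A, which the choice did not use, was tested.

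The libraries came from hearts of ICR mice, an outbred strain, taken on postnatal day 12, after nuclei had been enriched for PCM1, a protein at the nuclear surface of cardiomyocytes. The YAP5SA_MEF2A group (2 libraries) had received 2 AAV9 viruses on postnatal day 7, one for YAP5SA and one for human MEF2A, each at 1E11 genome copies and each driven by the cardiac troponin T promoter, cTnT. YAP5SA (3 libraries) and MEF2A (4 libraries) had received 1 of these viruses at the same dose, and Control (5 libraries) had received no virus. Control thus lacks the injection and the AAV9 particle as well as the factor. MEF2A libraries share the AAV9 particle and the promoter with YAP5SA_MEF2A, but with 1 virus in place of 2 and so a lower total dose. All groups were wild type for their own Yap1 and Mef2a. Both YAP5SA_MEF2A libraries were in batch 1, and the other groups had libraries in both batches. Whether libraries came from different animals is not given in the labels, so the tests measure only the spread between libraries, which may be technical.

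YAP is a transcriptional coactivator that the Hippo kinases hold in the cytoplasm, and it acts on genes through TEAD factors. YAP5SA lacks the serines that the LATS kinases phosphorylate, so it escapes that control. Scel encodes sciellin, a precursor protein of the cornified envelope, the crosslinked protein shell of stratified squamous epithelium. Cemip encodes a secreted protein that binds hyaluronan, a long sugar polymer of the extracellular matrix, and takes part in its breakdown. Prss27 encodes a serine protease of the trypsin-like family, also called marapsin. None of the 3 is a textbook heart gene.

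Scel (ENSMUSG00000022123) lies at chr14:103513342-103612797 on the plus strand, with 2503 exonic bases in the annotation. Cemip (ENSMUSG00000052353) lies at chr7:83932857-84086502 on the minus strand, with 12232 exonic bases. Prss27 (ENSMUSG00000050762) lies at chr17:24038144-24045954 on the plus strand, with 1253 exonic bases. No other gene of the table overlaps any of the 3, so their counts were not shared with an overlapping gene.

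The RefSeq promoters of the 3 genes (GRCm38.p6, 250 bases before to 50 after the start, read 5′ to 3′ on the gene's strand) are shown because the genes lie on different chromosomes and were all higher with YAP5SA. Capitals mark matches to the motifs searched. The Scel window is chr14:103513091-103513390, the Cemip window is chr7:84086456-84086755 on the minus strand, and the Prss27 window is chr17:24037993-24038292.
Scel: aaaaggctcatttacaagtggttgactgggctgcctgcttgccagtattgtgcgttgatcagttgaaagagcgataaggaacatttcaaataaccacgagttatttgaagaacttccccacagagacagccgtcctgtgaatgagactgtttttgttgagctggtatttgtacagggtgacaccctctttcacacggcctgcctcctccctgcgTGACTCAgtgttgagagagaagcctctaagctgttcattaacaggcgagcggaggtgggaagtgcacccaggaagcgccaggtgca
Cemip: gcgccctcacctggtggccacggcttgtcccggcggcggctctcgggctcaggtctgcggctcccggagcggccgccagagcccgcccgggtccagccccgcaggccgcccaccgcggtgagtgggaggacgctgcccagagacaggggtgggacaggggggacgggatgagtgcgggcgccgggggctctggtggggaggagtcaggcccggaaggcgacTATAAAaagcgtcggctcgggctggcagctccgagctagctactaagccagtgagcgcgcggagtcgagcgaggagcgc
Prss27: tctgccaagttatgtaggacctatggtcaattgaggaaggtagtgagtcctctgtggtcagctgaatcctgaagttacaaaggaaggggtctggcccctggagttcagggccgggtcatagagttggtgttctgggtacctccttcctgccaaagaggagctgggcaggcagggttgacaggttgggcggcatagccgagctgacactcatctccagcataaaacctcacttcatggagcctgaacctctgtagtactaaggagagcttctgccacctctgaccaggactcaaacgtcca
Motifs searched on both strands were GGAATG, the core that TEAD factors bind, and TGANTCA, the AP-1 motif; TATAAA, the TATA box, was searched on the gene's strand and added after the sequences had been seen. GGAATG was in none of the 3 windows and in 14.7% of 32851 promoter windows of the same length. TGANTCA was in the Scel window, beginning 36 bases before the start, and in 7.81% of all windows. TATAAA was in the Cemip window, beginning 29 bases before the start, and in 8.32% of all windows. No 2 matches overlapped. The windows also differed in base composition. Cemip had 73.7% G and C with 33 CpG pairs, Scel 50% with 9, and Prss27 53.7% with 4, where the median window had 52.7% with 7. The RefSeq start of Prss27 lies 99 bases from the GENCODE start, whereas those of Scel and Cemip lie 1 and 3 bases from theirs. These matches are a description of the letters in these windows only.

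Library totals ran between 16171068 and 24027622 counts. Counts from the mitochondrial chromosome made up 5.35% to 6.10% of YAP5SA_MEF2A libraries, 3.80% to 32.2% of YAP5SA, 14.8% to 23.2% of MEF2A and 5.54% to 67.5% of Control, with Controls 1 and 2 (60.7% and 67.5%) standing apart. A library needed 0.101 to 0.391 CPM to reach 3 counts, so levels at or under that are not distinguishable from 0. Sex, called from Xist and Y-linked transcripts, was female in both YAP5SA_MEF2A libraries, male in the 3 YAP5SA libraries, and mixed in MEF2A (3 female, 1 male) and Control (2 female, 3 male). Mouse Yap1 averaged 74.8 ± 6.45 CPM in YAP5SA_MEF2A, 55.7 ± 18.8 in YAP5SA, 73.3 ± 8.88 in MEF2A and 64.0 ± 10.1 in Control (SD, n = 2, 3, 4 and 5). Mef2a averaged 523 ± 55.0, 393 ± 142, 596 ± 25.5 and 556 ± 36.4 CPM in the same 4 groups. Reads of the delivered sequences may be missed at the mouse genes, so these levels do not check the delivery.

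Scel was high in each library with YAP5SA and near 0 in each library without it. It was measured at 22.3 and 25.8 CPM in YAP5SA_MEF2A 1 and 2, and at 109, 47.0 and 44.4 CPM in YAP5SA 1, 2 and 3. In MEF2A 1 to 4 it was at 0.218, 0.374, 0.288 and 0.608 CPM, and in Control 1 to 5 at 0, 2.09, 0.408, 0.269 and 0.462 CPM. YAP5SA 1 was the highest library and Control 2 stood above the other Controls. Behind these levels were 576 to 2792 reads per library with YAP5SA and 0 to 16 reads per library without it. Group means were 24.1 ± 2.47 CPM in YAP5SA_MEF2A, 66.8 ± 36.7 in YAP5SA, 0.372 ± 0.170 in MEF2A and 0.645 ± 0.825 in Control (SD, n = 2, 3, 4 and 5). The lowest YAP5SA library was at 44.4 CPM and the higher YAP5SA_MEF2A library at 25.8 CPM, while MEF2A and Control overlapped. With 3 and 2 libraries, and YAP5SA libraries that chose the gene, the order of the groups with YAP5SA was not tested.

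Cemip had the largest read numbers of the 3 genes. It stood at 89.5 and 85.0 CPM in YAP5SA_MEF2A 1 and 2, and at 295, 66.9 and 191 CPM in YAP5SA 1, 2 and 3. In MEF2A 1 to 4 it was at 0.544, 1.87, 0.144 and 0.0608 CPM, and in Control 1 to 5 at 2.49, 1.70, 0.122, 4.07 and 1.27 CPM. Here YAP5SA 2 was the lowest library with the virus and lay below both YAP5SA_MEF2A libraries, so these 2 groups overlapped. MEF2A and Control overlapped too, over reads of 1 to 30 and 3 to 121 per library. Means were 87.2 ± 3.16 CPM in YAP5SA_MEF2A, 185 ± 114 in YAP5SA, 0.655 ± 0.838 in MEF2A and 1.93 ± 1.47 in Control (SD, n = 2, 3, 4 and 5).

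Prss27 showed the smallest span of the 3. It was at 22.7 and 17.0 CPM in YAP5SA_MEF2A 1 and 2, and at 40.6, 23.1 and 31.4 CPM in YAP5SA 1, 2 and 3. In MEF2A 1 to 4 it was at 1.36, 0.936, 0.624 and 1.15 CPM, and in Control 1 to 5 at 0, 0, 0.734, 3.90 and 1.31 CPM. The lowest YAP5SA library was at 23.1 CPM and the higher YAP5SA_MEF2A library at 22.7 CPM, an order that was not tested here either. MEF2A lay inside the range of Control. Both Controls at 0 were the batch 1 libraries with the high mitochondrial share. Means were 19.8 ± 4.06 CPM in YAP5SA_MEF2A, 31.7 ± 8.74 in YAP5SA, 1.02 ± 0.315 in MEF2A and 1.19 ± 1.61 in Control (SD, n = 2, 3, 4 and 5).

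**Figure D1:**
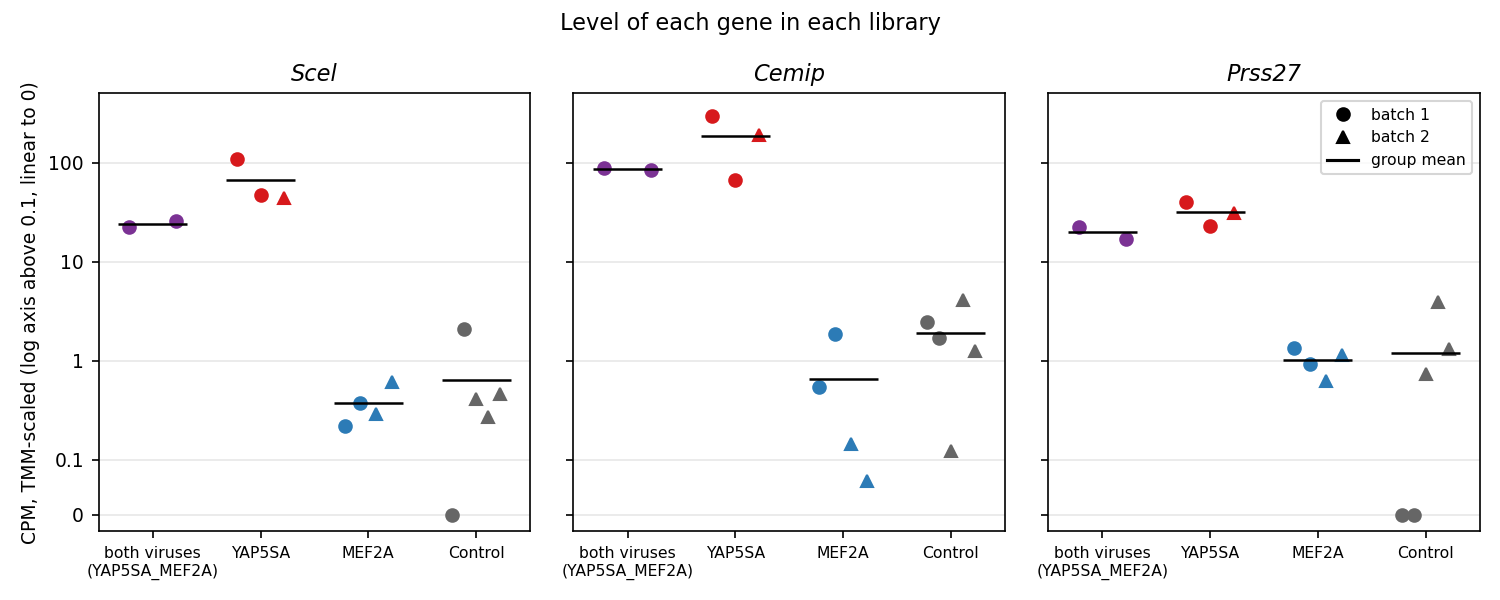
Level of Scel, Cemip and Prss27 in each library, in TMM-scaled CPM on a log axis that turns linear below 0.1, with YAP5SA_MEF2A, YAP5SA, MEF2A and Control from left to right. Points are libraries (circles batch 1, triangles batch 2) and lines are group means; each of the 5 libraries with YAP5SA lies above each of the 9 without it, and the Control points of Prss27 at 0 are Controls 1 and 2.

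For all 3 genes, each of the 5 libraries with YAP5SA lay above each of the 9 libraries without it, a pattern that 928 of the 17987 tested genes (5.16%) had. The distance from the lowest library with YAP5SA to the highest library without it was 16.4-fold for Cemip (66.9 against 4.07 CPM), 10.7-fold for Scel (22.3 against 2.09 CPM) and 4.35-fold for Prss27 (17.0 against 3.90 CPM). Ordered by that distance over all tested genes, Cemip came at place 5, Scel at 15 and Prss27 at 47. All 3 passed the filter on low counts, for which their reads in the 5 libraries with YAP5SA were enough. These distances include the groups that chose the genes and are a description.

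Per length of exon, the order of the 3 genes changed with the group. In YAP5SA_MEF2A, Prss27 was highest at 15.8 RPKM (CPM per kilobase of exon), before Scel at 9.62 and Cemip at 7.13 RPKM. In YAP5SA, Scel at 26.7 and Prss27 at 25.3 RPKM lay above Cemip at 15.1 RPKM, and Scel and Prss27 differed by less than their spread (SD 14.7 and 6.98 RPKM). In MEF2A the levels were 0.813 RPKM for Prss27, 0.149 for Scel and 0.0536 for Cemip, and in Control they were 0.949, 0.258 and 0.158 RPKM. Ranked by RPKM among the 17987 tested genes, Scel stood at percentile 79.8 in YAP5SA_MEF2A, 93.5 in YAP5SA, 14.2 in MEF2A and 18.5 in Control. The percentiles of Cemip were 74.2, 86.8, 6.14 and 13.4 in the same order of groups. Those of Prss27 were 87.7, 93.0, 36.1 and 36.4, so it was the one of the 3 that ranked farthest from the bottom without YAP5SA.

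The comparison of YAP5SA_MEF2A with MEF2A asks what the YAP5SA virus added to nuclei that also received MEF2A, with virus given to both groups. YAP5SA_MEF2A received 2 viruses and MEF2A 1, each at 1E11 genome copies. The larger total dose thus cannot be told apart from YAP5SA here. Each of the 3 genes was higher with YAP5SA, where edgeR's quasi-likelihood test called 417 of 17987 genes (2.32%), 290 of them higher (1.61%) and 127 lower (0.706%). Scel rose by 5.65 ± 0.76 on the log2 scale (SE), or 50.3-fold with a 95% interval of 16.2 to 156 (adjusted p = 0.00135). Cemip rose by 6.89 ± 1.15, or 119-fold with an interval of 19.8 to 713 (adjusted p = 0.0168). Prss27 rose by 4.64 ± 0.95, or 25.0-fold with an interval of 5.91 to 105 (adjusted p = 0.0274). The intervals of the 3 genes overlap. Both YAP5SA_MEF2A libraries were above all 4 MEF2A libraries for each gene, as for 22.8% of tested genes.

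The Scel call held in each setting tried, and those of Cemip and Prss27 were less firm. Cemip was no longer called without MEF2A 1 (adjusted p = 0.0612), YAP5SA_MEF2A 1 (0.118) or YAP5SA_MEF2A 2 (0.112), at rises of 6.70, 6.85 and 6.93 on the log2 scale. Prss27 was no longer called without any 1 library of the 2 groups. Its adjusted p was 0.0551, 0.0967, 0.0610 and 0.0755 without MEF2A 1, 2, 3 and 4, and 0.265 and 0.183 without YAP5SA_MEF2A 1 and 2, at rises between 4.40 and 5.17. The number of genes called moved in the same way, to 90 without YAP5SA_MEF2A 1, 103 without YAP5SA_MEF2A 2, 245, 170, 252 and 267 without MEF2A 1, 2, 3 and 4, and 672 without Control 3, which shares the estimate of spread. With batch 1 libraries alone the rises were 6.33 for Scel (adjusted p = 0.0175), 6.19 for Cemip (0.0152) and 4.09 for Prss27 (0.00610). With a term for sex they were 5.97, 6.50 and 4.23, and all 3 were called. The main fit used all 14 libraries, so its batch term and spread come partly from the groups that chose the genes. Fitted on only YAP5SA_MEF2A and MEF2A, the rises were 6.34 for Scel, 6.20 for Cemip and 4.10 for Prss27. All 3 were called in that fit, where 2523 of 15946 genes were. With the replicate number as a block in place of batch, Cemip was at 6.92 (adjusted p = 0.0730) and 207 genes were called.

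In YAP5SA against Control, where 1773 genes were called (9.86%), 1023 of them higher (5.69%) and 750 lower (4.17%), the 3 genes stood at 6.69 ± 0.62 for Scel, 6.39 ± 0.94 for Cemip and 5.08 ± 0.87 for Prss27 on the log2 scale (SE). These values chose the genes. The lack of overlap between the 2 groups, which 8.7% of tested genes shared in the same direction, goes with that choice and is no test. The Cemip difference depended on which libraries stood for the groups. It was 6.15 ± 1.22 without Controls 1 and 2 and 3.20 ± 3.55 without Controls 1 and 2 and YAP5SA 3. The second of these leaves YAP5SA in batch 1 and Control in batch 2, and only 75 genes were called there. For Prss27, both batch 1 Controls were at 0, and without them the difference was 3.85. For Scel it was 7.64 without Control 2. YAP5SA_MEF2A against Control, which shares the Control libraries, gave 5.03 ± 0.70 for Scel, 5.05 ± 1.11 for Cemip and 4.63 ± 1.04 for Prss27.

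MEF2A against Control shares the Control libraries that chose the genes, so its values are a description and no test of the 3 genes. The log2 difference of MEF2A from Control was -0.62 ± 0.70 for Scel (95% interval -2.12 to 0.88), -1.84 ± 1.04 for Cemip (-4.17 to 0.49) and -0.01 ± 0.90 for Prss27 (-1.97 to 1.96). As folds, the intervals reach from 0.230 to 1.85 for Scel, 0.0557 to 1.40 for Cemip and 0.255 to 3.89 for Prss27, and differences inside them were not detectable at these read numbers. YAP5SA_MEF2A against YAP5SA, whose YAP5SA libraries chose the genes, gave -1.65 ± 0.68 for Scel (95% interval -3.12 to -0.18), -1.34 ± 1.10 for Cemip (-3.80 to 1.13) and -0.45 ± 0.94 for Prss27 (-2.49 to 1.59). All 3 estimates were below 0 and the intervals of Cemip and Prss27 include 0. The interval of Scel does not, but no interval is adjusted for the number of genes tested. This comparison also sets female libraries (YAP5SA_MEF2A) against male ones (YAP5SA), so its values are a description.

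**Figure D2:**
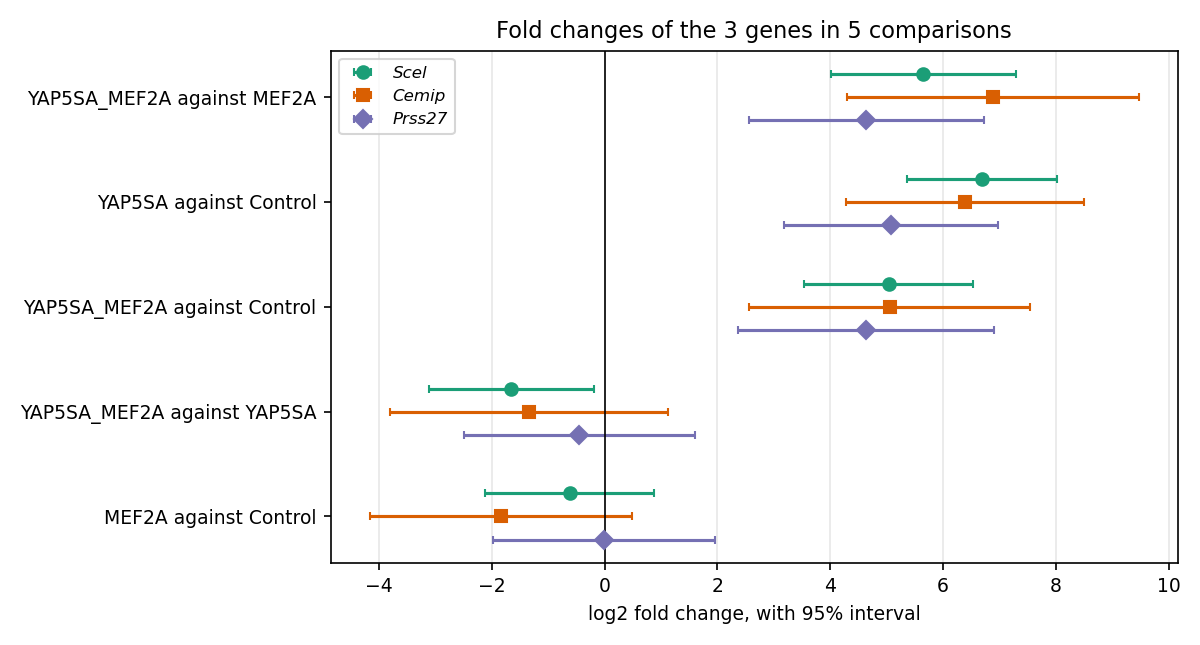
Log2 fold change with its 95% interval for Scel (circle), Cemip (square) and Prss27 (diamond) in 5 comparisons of groups, from edgeR with group and batch as terms. In the 3 comparisons of YAP5SA or YAP5SA_MEF2A with a group without YAP5SA the estimates lie between 4.63 and 6.89, and in MEF2A against Control each interval includes 0.

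Other genes of the cornified envelope were not called beside Scel in YAP5SA_MEF2A against MEF2A. Of 20 other genes of the envelope, 8 could be tested, and edgeR called 0 of them in YAP5SA_MEF2A against MEF2A (1 at an unadjusted p under 0.05, 1 with DESeq2), with a median of 0.50 on the log2 scale, against 0.05 for all genes tested. Another 9 of the 20, among them Flg (filaggrin) and Sprr1b (a small proline-rich envelope protein), had 0 reads in all 14 libraries. Ppl and Evpl, the plakins periplakin and envoplakin that scaffold the envelope, were detected but showed differences of 0.15 ± 0.50 (adjusted p = 0.941) and -0.22 ± 0.59 (adjusted p = 0.925). Ppl averaged 5.92 CPM in YAP5SA_MEF2A, 4.03 in YAP5SA, 7.13 in MEF2A and 6.05 in Control. With YAP5SA against Control 1 of the 8 was called higher, where 5.69% of all tested genes were. It was Tchh (trichohyalin of hair follicles), at 1.42 with an adjusted p of 0.0178, a call that ended without Control 1, YAP5SA 1 or YAP5SA 3. Tchh averaged 10.8 CPM in YAP5SA_MEF2A, 11.8 in YAP5SA, 4.46 in MEF2A and 4.25 in Control.

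Some genes that make, bind or degrade hyaluronan, the polymer that Cemip acts on, were called in YAP5SA against Control, and none in YAP5SA_MEF2A against MEF2A. Of 28 others, 24 were tested and edgeR called 0 in YAP5SA_MEF2A against MEF2A (2 at an unadjusted p under 0.05, 0 with DESeq2), with a median of 0.31. Cemip2, the family member that encodes a cell-surface hyaluronidase, was at 8.26 and 9.73 CPM in YAP5SA_MEF2A and averaged 10.1 in YAP5SA, 3.11 in MEF2A and 3.25 in Control, and its difference of 1.5 ± 0.52 was not called (adjusted p = 0.152). Against Control, YAP5SA libraries had 3 of the 24 called higher and 0 lower, where 5.69% of all tested genes were called higher. They were Cemip2 at 1.60 (adjusted p = 0.0288), Cd44, the main hyaluronan receptor, at 2.12 (0.00451), and Has2, a hyaluronan synthase. Has2 averaged 0.709 CPM in YAP5SA_MEF2A, 0.898 in YAP5SA, 0.0960 in MEF2A and 0 in Control. That was 11 to 38 reads per library with YAP5SA or YAP5SA_MEF2A and 0 to 3 reads with MEF2A. All 3 calls ended without YAP5SA 3, that of Cemip2 also without Control 1, Control 2 or YAP5SA 1, and that of Has2 also without YAP5SA 1 or YAP5SA_MEF2A 1. At an unadjusted p under 0.05, 7 of the 24 were higher and 0 lower in YAP5SA against Control. DESeq2 called 5 higher there and limma-voom 4, and the median was 0.69, against 0.06 for all genes tested.

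Among 26 other trypsin-like serine proteases, 17 were tested and 1 was called higher in YAP5SA_MEF2A against MEF2A (1.61% of all tested genes were called higher), with a median of 0.34. It was Tmprss2, a membrane-anchored protease, with a rise of 6.37 ± 1.40 (adjusted p = 0.0231). Tmprss2 was at 3.41 and 5.84 CPM in YAP5SA_MEF2A, 10.2, 3.04 and 3.86 in YAP5SA, 0, 0.187, 0 and 0 in MEF2A, and 0 in Controls 1 to 4 with 0.308 in Control 5. Its libraries with and without YAP5SA did not overlap. The call ended without MEF2A 1, 3 or 4 or either YAP5SA_MEF2A library (highest adjusted p = 0.159), with batch 1 alone and with a sex term. Prss23, a secreted family member, averaged 12.1 CPM in YAP5SA_MEF2A, 32.2 in YAP5SA, 1.17 in MEF2A and 1.43 in Control, and its difference of 3.54 ± 0.94 missed the threshold (adjusted p = 0.0804). Antisense genes overlap Prss23, as they do Cemip2, so their reads are uncertain. The other tested Prss genes were not called and were low. Prss12 was at 0.596 CPM in YAP5SA_MEF2A and 1.46 in MEF2A, Prss35 at 0.398 and 0.199, and Prss53 at 0.889 and 0.890. YAP5SA against Control had 3 of the 17 called higher and 0 lower (5.69% of all tested genes were called higher), namely Prss23 at 4.50 (adjusted p = 0.0045), Tmprss2 at 5.83 (0.00468) and Plau, the urokinase plasminogen activator, at 3.21 (0.00201), and all 3 calls ended without YAP5SA 3.

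Of 14 serine protease inhibitors, 13 were tested and 1 was called higher in YAP5SA_MEF2A against MEF2A (1.61% of all tested genes were called higher), with a median of 0.73. Spint2, a Kunitz-type inhibitor of membrane-anchored trypsin-like proteases, was called at 1.47 ± 0.37 (adjusted p = 0.0457) and averaged 18.1 CPM in YAP5SA_MEF2A, 18.3 in YAP5SA, 7.13 in MEF2A and 7.74 in Control. That call ended without any 1 of 10 libraries, namely Controls 1, 2 and 5, MEF2A 2, 3 and 4, YAP5SA 1 and 3, and both YAP5SA_MEF2A libraries (highest adjusted p = 0.338). YAP5SA against Control had 6 of the 13 called higher and 0 lower, against 5.69% of all tested genes called higher, with a median of 1.31. The Spint2 call there, at 1.31 (adjusted p = 0.0135), ended without YAP5SA 1 or YAP5SA 3. The calls of Serpine2, Serpinh1, Serpina3n and Serpinf1 also ended without YAP5SA 3.

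Of 22 known YAP and TEAD targets, 21 were tested, and 8 were called higher and 0 lower in YAP5SA_MEF2A against MEF2A, where 1.61% of all tested genes were called higher (13 higher and 0 lower at an unadjusted p under 0.05), with a median of 1.54. Wwc1 (the Hippo component KIBRA) rose by 4.27 ± 0.49 (adjusted p = 0.000124), Amotl2 (an angiomotin that binds YAP) by 3.07 ± 0.39 (0.000583), Tgfb2 (a TGF-beta ligand) by 2.21 ± 0.35 (0.00193) and Dlc1 (a GTPase-activating protein) by 1.76 ± 0.30 (0.00355). These 4 calls held with each library left out. Ccn2 (connective tissue growth factor) rose by 2.77 ± 0.47 (adjusted p = 0.00881) and Ajuba (a LIM protein that binds LATS kinases) by 1.87 ± 0.35 (0.0101). The Ccn2 call ended without either YAP5SA_MEF2A library and the Ajuba call without MEF2A 2 or YAP5SA_MEF2A 1. The other 2 of the 8 were Asap1 and Crim1, whose calls ended without MEF2A 1 or either YAP5SA_MEF2A library, that of Asap1 also without MEF2A 2. Noncoding genes overlap Ccn2 and Tgfb2, whose reads are thus uncertain. Without YAP5SA these targets ranged from near silent to well detected. Amotl2 averaged 555 CPM in YAP5SA_MEF2A, 593 in YAP5SA, 68.5 in MEF2A and 67.6 in Control, and Wwc1 averaged 39.4, 55.0, 2.13 and 3.30 CPM. With YAP5SA against Control 13 of the 21 were called higher and 0 lower (5.69% of all tested genes were called higher), with a median of 1.77, and those of Ccn1, Axl, Nt5e and Nuak2 ended without YAP5SA 3, that of Axl also without YAP5SA 1.

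**Figure D3:**
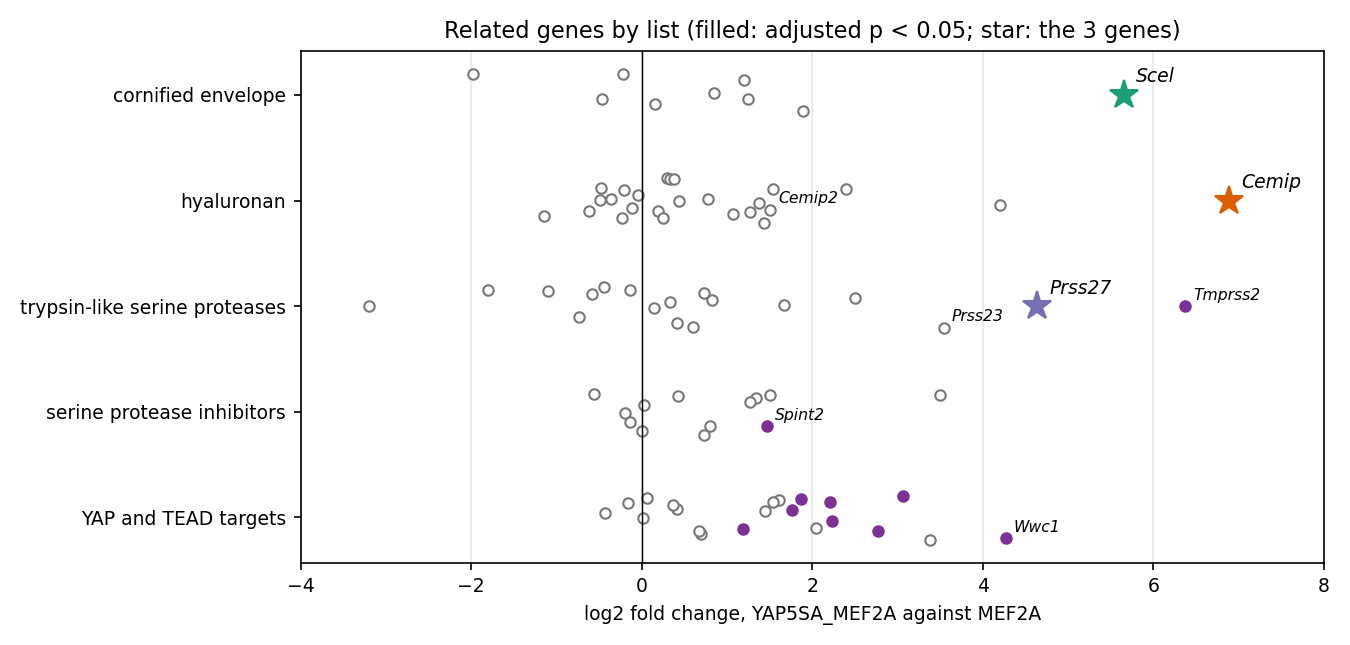
Log2 fold change in YAP5SA_MEF2A against MEF2A for the tested genes of 5 lists, 1 point per gene, spread vertically within a list for legibility. Stars are Scel, Cemip and Prss27, filled points passed an adjusted p of 0.05; Tmprss2 at 6.37 is the one listed relative as far to the right as the stars.

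Of the genes next to the 3 genes on their chromosomes, some beside Cemip and Prss27 and none beside Scel were called in YAP5SA_MEF2A against MEF2A. Within 250 kb, 57 annotated genes of the table lay beside them and 20 were tested, of which 4 were called higher and 0 lower there, where 1.61% of all tested genes were called higher, and their median was 0.52. Beside Scel, 3 of 8 genes were tested and edgeR called none (1 lower at an unadjusted p under 0.05, 0 with DESeq2). The nearest tested on each side were Slain1 (a microtubule-binding protein), 37.4 kb after the gene, at 1.05 ± 1.72 (adjusted p = 0.857) and Mycbp2 (a ubiquitin ligase), 167 kb before it, at -0.54 ± 0.22 (adjusted p = 0.228). Mycbp2 was called lower in YAP5SA against Control, at -0.80 (adjusted p = 0.00909), a call that ended without YAP5SA 3 and with library totals as the scale.

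Beside Cemip, 6 of 19 genes were tested and 2 were called, both on the side of its start. Abhd17c, which encodes a depalmitoylating enzyme, lies 22.9 kb from that end and rose by 2.09 ± 0.38 (adjusted p = 0.00557). It was at 21.4 and 20.4 CPM in YAP5SA_MEF2A, 38.2, 16.5 and 38.0 in YAP5SA, 4.74, 4.87, 5.04 and 4.13 in MEF2A, and 8.05, 4.43, 4.69, 4.03 and 4.12 in Control, so the libraries with and without YAP5SA did not overlap. Its call ended without YAP5SA_MEF2A 1 (adjusted p = 0.0601). Arnt2, a bHLH-PAS transcription factor 160 kb away on the same side, rose by 2.82 ± 0.72 (adjusted p = 0.0455), but the call ended without any 1 of 8 libraries, namely Controls 1, 4 and 5, MEF2A 1 and 2, YAP5SA 1 and both YAP5SA_MEF2A libraries. An antisense gene overlaps Arnt2, and the libraries do not keep strand, so its reads are uncertain. Both were also called in YAP5SA against Control, at 2.61 each (adjusted p = 5.07e-05 for Abhd17c and 0.0104 for Arnt2), and the Arnt2 call there ended without YAP5SA 1. On the other side the nearest tested gene was Mesd, an LRP chaperone, 31.3 kb away, at -0.58 ± 0.24 (adjusted p = 0.243).

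Beside Prss27, 11 of 30 genes were tested. Kctd5, an adaptor of a ubiquitin ligase, lies 1.78 kb after the gene and averaged 31.7 CPM in YAP5SA_MEF2A, 32.4 in YAP5SA, 16.9 in MEF2A and 11.8 in Control. Its difference of 1.01 ± 0.33 was not called in YAP5SA_MEF2A against MEF2A (adjusted p = 0.135) but was called in YAP5SA against Control at 1.54 (adjusted p = 0.00279). Elob, an elongin subunit and the nearest tested gene before Prss27 at 209 kb, was at 0.56 ± 0.57 (adjusted p = 0.721). Srrm2, a splicing factor 213 kb before the gene, rose by 1.22 ± 0.27 (adjusted p = 0.0202), and the microRNA gene Mir5125, which lies within Srrm2, rose by 2.86 ± 0.60 (0.0171). Reads of a microRNA gene inside a polyA-selected host cannot be told apart from those of the host, and Srrm2 overlaps Elob on the other strand. The Srrm2 call ended without MEF2A 2, 3 or 4 or either YAP5SA_MEF2A library, and the Mir5125 call without MEF2A 2 or 3 or either YAP5SA_MEF2A library. Against Control, YAP5SA gave Srrm2 at 0.94 (adjusted p = 0.0143) and Mir5125 at 2.08 (0.0182). Both of those calls ended without Control 1 or YAP5SA 1, and that of Mir5125 also without YAP5SA 3.

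**Figure D4:**
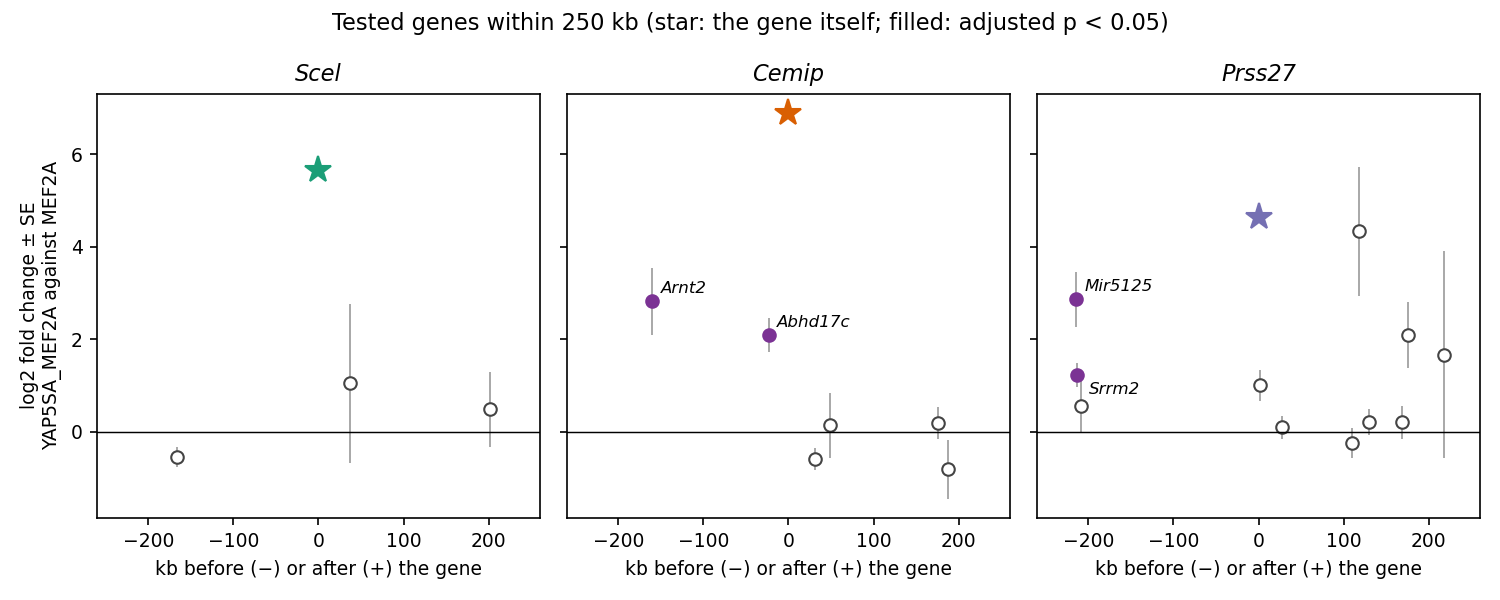
Log2 fold change (± SE) in YAP5SA_MEF2A against MEF2A of tested genes within 250 kb of Scel, Cemip and Prss27, against their distance in kb before (negative) or after the gene, on its own strand. Stars are the genes themselves and filled points passed an adjusted p of 0.05; Abhd17c at 22.9 kb is the called neighbour nearest to any of them.

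Likeness was measured as the root mean square difference between log2 CPM profiles over the 14 libraries, after each was centred on its own mean, so that 0 is an identical profile. For Scel the nearest were Lrtm2 (1.05), Peak1os (1.08), Lrp2 (1.08), Nog (1.13) and Bmp8b (1.18), where the median gene was at 3.31. For Cemip they were Igfbp2 (1.24), Lrtm2 (1.40), Peak1os (1.41), Krt7 (1.45) and Cdh15 (1.48), against a median of 3.72. For Prss27 they were Plcxd2 (1.03), Cacna1s (1.16), Fstl3 (1.22), Tekt5 (1.25) and Ulk3 (1.26), against a median of 2.84. Thus Lrtm2 and Peak1os were near both Scel and Cemip, and no gene was among the first 5 of Prss27 and another of the 3.

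These like genes were low without YAP5SA as well, by the way they were found, and their levels are a description. Lrp2, which encodes the endocytic receptor megalin, averaged 18.2 CPM over the libraries with YAP5SA and 0.959 CPM over those without it. Krt7, a keratin of simple epithelium, averaged 80.6 and 2.77 CPM, and Igfbp2, an IGF-binding protein, 33.1 and 0.105 CPM. Bmp8b (a BMP ligand), Nog (the BMP antagonist noggin), Cdh15 (M-cadherin of skeletal muscle) and Cacna1s (a calcium channel subunit of skeletal muscle) averaged 4.76, 8.09, 6.01 and 36.5 CPM with YAP5SA, and 0, 0.196, 0.0229 and 1.32 CPM without it. Among these, Lrtm2, Peak1os, Bmp8b, Krt7, Cdh15, Plcxd2, Cacna1s and Fstl3 overlap another annotated gene, so part of their reads may belong to it. Among the 3 genes the difference was 1.76 between Scel and Cemip, 1.80 between Scel and Prss27 and 2.25 between Cemip and Prss27. Of 17986 other genes, Cemip was the 45th nearest to Scel and Prss27 the 47th. Scel was the 14th nearest to Cemip and Prss27 the 66th. For Prss27, Scel came at place 216 and Cemip at place 1180.

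A wider set holds the genes that fit a numeric form of the choice. With a Control mean of at most 1.5 CPM and a log2 difference of at least 4 in YAP5SA against Control, 374 genes qualified, 190 of them with an ordinary gene symbol. Scel and Prss27 were among the 374, and Cemip was just outside with a Control mean of 1.93 CPM. Only 130 of the 374 were called in YAP5SA against Control, the comparison that chose them. In YAP5SA_MEF2A against MEF2A 37 were called higher and 0 lower, where 1.61% of all tested genes were called higher. Some of the 374 were low in YAP5SA as well, such as Disp2 at a mean of 0.187 CPM, so a large fitted difference can rest on few reads. The 8 with the largest fitted difference in YAP5SA against Control had 0 reads in all 5 Controls, so no fold is given for them. Of these, Spp1 (osteopontin) was at 1.49, 0.0440 and 31.0 CPM in YAP5SA 1, 2 and 3 and Itgax (the integrin CD11c) at 3.64, 1.06 and 15.5 CPM, both highest in YAP5SA 3. Neither was called in YAP5SA_MEF2A against MEF2A (adjusted p = 0.315 and 0.625).

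Myh1, a fast skeletal myosin heavy chain, was at 37.2 and 39.0 CPM in YAP5SA_MEF2A, 8.10, 8.72 and 5.16 in YAP5SA, 0.381, 0, 0 and 0 in MEF2A, and 0 in each Control. It was called in YAP5SA_MEF2A against MEF2A (adjusted p = 0.000351), as were Bmp8b (0.00835), Crybg2 (0.0437) and the cytokine Tnfsf15 (0.0251). The Crybg2 and Tnfsf15 calls ended without any 1 of several libraries, namely Control 5 and MEF2A 4 for Crybg2 alone, and MEF2A 1, 2 and 3, YAP5SA 1 and 3 and both YAP5SA_MEF2A libraries for either. The chemokine Cxcl14 and 1810053B23Rik were not called (adjusted p = 0.0865 and 0.083). Myh1 and Crybg2 overlap genes on the other strand, so their reads are uncertain. Myh1 was higher in YAP5SA_MEF2A than in YAP5SA, which none of Scel, Cemip and Prss27 was on average.

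Markers of other cell types give the make-up of the libraries in which the 3 genes rose. In bulk nuclei, fewer nuclei of a type and less RNA per nucleus cannot be told apart. Cardiomyocyte markers (8 genes, all detected) summed to 35735 to 40127 CPM in YAP5SA_MEF2A, 25626 to 38308 in YAP5SA, 78283 to 79716 in MEF2A and 48320 to 81286 in Control. Their sums were thus lower in each library with YAP5SA than in each without it, though edgeR called none of the 8 in YAP5SA_MEF2A against MEF2A (6 were lower at an unadjusted p under 0.05, and DESeq2 called 3 lower) and called 3 lower in YAP5SA against Control, where 4.17% of all tested genes were called lower. Of these 3, the call of Ttn (titin) held with each library left out, that of Tnni3 ended without Control 1, YAP5SA 1 or YAP5SA 3, and that of Myh6 ended without any 1 of 11 libraries, all but Controls 2 and 3 and YAP5SA 2. The part of this in the rise of the 3 genes was not tested.

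Markers of squamous epithelium, where sciellin is at home, had low sums in all 4 groups. The 12 markers summed to 6.48 to 11.9 CPM in YAP5SA_MEF2A, 4.77 to 12.3 in YAP5SA, 4.41 to 8.21 in MEF2A and 1.04 to 7.39 in Control, and these ranges overlap. Krt5 and Krt6a, keratins that define basal and activated squamous cells, had 0 reads in all 14 libraries, and Krt14 averaged 0.636 CPM in YAP5SA_MEF2A, 1.16 in YAP5SA, 1.73 in MEF2A and 1.34 in Control. Trp63, the squamous transcription factor p63, had the most reads of the list (202 in a library) at 6.07, 3.55, 1.11 and 0.808 CPM in YAP5SA_MEF2A, YAP5SA, MEF2A and Control. edgeR called none of the 6 tested markers either way in either comparison (1 was higher in each at an unadjusted p under 0.05, 0 with DESeq2, and limma-voom called 1 higher in YAP5SA against Control). The part of squamous cells in the rise of Scel was not tested. Of 9 lung epithelial markers, 5 were tested and edgeR called none (0 in YAP5SA_MEF2A against MEF2A and 1 in YAP5SA against Control at an unadjusted p under 0.05, 0 with DESeq2), with sums of 17.1 to 19.4 CPM in YAP5SA_MEF2A, 23.2 to 34.2 in YAP5SA, 17.7 to 24.3 in MEF2A and 20.2 to 28.3 in Control.

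Summed mesothelial and epicardial markers were higher in each library with YAP5SA than in each without it. The 8 genes summed to 144 to 170 CPM in YAP5SA_MEF2A, 168 to 207 in YAP5SA, 73.9 to 131 in MEF2A and 98.9 to 142 in Control. Among them Wt1, a transcription factor of the epicardium, averaged 71.2 CPM in YAP5SA_MEF2A, 66.8 in YAP5SA, 14.7 in MEF2A and 12.9 in Control and rose by 2.16 ± 0.33 in YAP5SA_MEF2A against MEF2A (adjusted p = 0.00133). Without Wt1 the other 7 summed to 85.2 to 86.7, 103 to 128, 62.9 to 110 and 84.9 to 128 CPM in the 4 groups, which overlap. Msln, the mesothelial surface protein mesothelin, was at 27.4, 26.7, 36.5 and 44.0 CPM in the same order. YAP5SA against Control had 3 of the 8 called higher (Wt1, Krt19 and Tbx18) and Muc16 lower, where 5.69% of all tested genes were called higher and 4.17% lower. The calls of Krt19, Tbx18 and Muc16 ended without YAP5SA 1. The part of these cells in the rise of the 3 genes was not tested.

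Macrophage markers (8 genes) summed to 80.1 to 81.3 CPM in YAP5SA_MEF2A, 74.5 to 734 in YAP5SA, 52.6 to 81.6 in MEF2A and 49.2 to 153 in Control. The 734 CPM belonged to YAP5SA 3, which was the lowest YAP5SA library for Scel and the middle one for Cemip and Prss27. Without YAP5SA 3, YAP5SA against Control gave 6.79 for Scel, 5.79 for Cemip and 5.71 for Prss27. The part of macrophages in the rise of the 3 genes was not tested. Fibroblast markers summed to 1182 to 1278 CPM in YAP5SA_MEF2A, 1225 to 2599 in YAP5SA, 1066 to 1616 in MEF2A and 984 to 1759 in Control, with none of 8 called by edgeR in either comparison (DESeq2 called 2 higher and 1 lower in YAP5SA against Control). Endothelial markers summed to 283 to 313, 168 to 354, 391 to 454 and 307 to 697 CPM in the 4 groups, and mural markers to 413 to 434, 466 to 538, 493 to 591 and 424 to 593 CPM. Of the macrophage, fibroblast, endothelial and mural markers edgeR called none in YAP5SA_MEF2A against MEF2A. At an unadjusted p under 0.05, 1 fibroblast marker was higher and 1 lower there, 4 endothelial and 3 mural markers were lower, and no macrophage marker passed; DESeq2 called 2 endothelial markers lower. In YAP5SA against Control 4 endothelial markers were called lower (4.17% of all tested genes were), all 4 calls ending without YAP5SA 3. There 1 macrophage marker, Mrc1, was called higher (5.69% of all tested genes were), a call that ended without YAP5SA 3 or without Control 3, 4 or 5. Of the 8 macrophage markers, 5 were higher there at an unadjusted p under 0.05 and 0 lower, with a median of 1.71 (log2). DESeq2 called 4 of them higher and limma-voom 5.

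**Figure D5:**
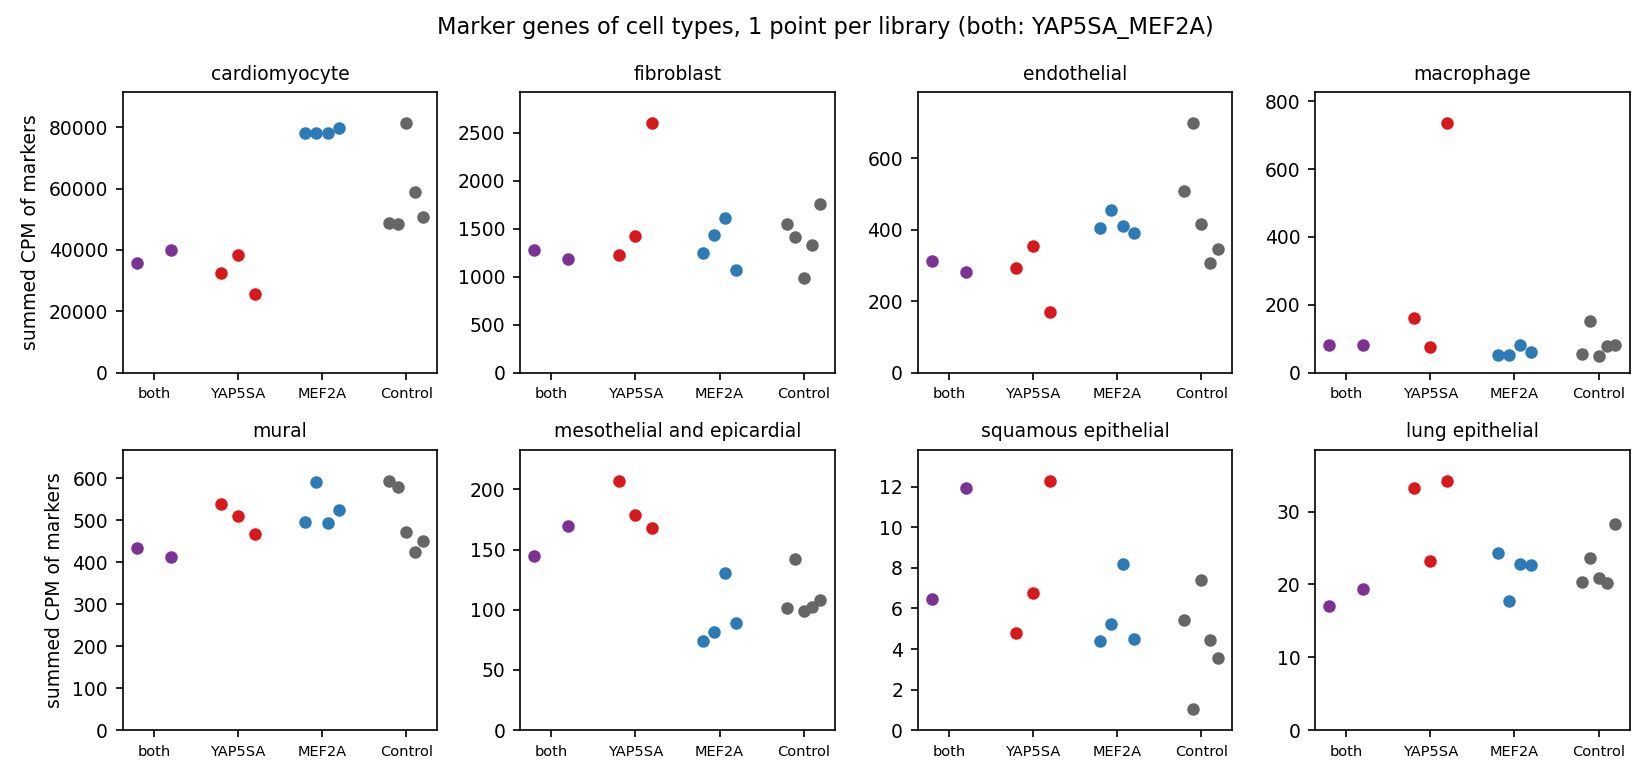
Summed CPM of marker genes of 8 cell types, 1 point per library, with YAP5SA_MEF2A (both), YAP5SA, MEF2A and Control from left to right and each axis starting at 0. Cardiomyocyte sums are lower and mesothelial and epicardial sums higher in each library with YAP5SA, YAP5SA 3 stands apart for macrophage and fibroblast markers, and squamous epithelial sums stay at or under 12.3 CPM in all groups.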

How the data were processed

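PolyA-selected RNA of PCM1-enriched nuclei was sequenced from non-directional libraries, per the labels' protocols. The authors deposited raw counts, whole numbers of reads for each Ensembl ID in 14 libraries. STAR, limma and edgeR, with build GRCm38, are named in the submitters' processing notes; their versions, the counting program and its strand setting are not given in the sources used here. Of 54446 gene IDs, 54409 had a GENCODE vM21 symbol. Columns were checked for duplicates (0 found).

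The filter was edgeR's filterByExpr (minimum count 10, total 15), leaving 17987 genes. Counts were scaled by TMM and tested with edgeR 4.0.16 in R 4.3.3 (quasi-likelihood F-test, robust, terms group and batch, all 14 libraries). All groups share 1 estimate of the spread, because 2 libraries got both viruses. Calls are at a two-sided Benjamini-Hochberg adjusted p under 0.05 over all tested genes; SEs were derived from the fold change and its F. Log2 CPM used a prior count of 2; RPKM used the annotated exon length. Intervals cover 95%, and library floors (3 counts) cover counting error only.

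The 3 genes, the lists and the alternatives were chosen with earlier results of these data known. Named genes were the 3 genes, the 5 most like each, called list members with the smallest p (at most 6), family members, called or nearest neighbours within 250 kb, and the 8 near-silent genes with the largest difference, leaving out provisional symbols among the like genes. Some calls in YAP5SA against Control, and some low markers, were named after their values were seen. Alternatives were other scalings and filters, DESeq2 1.42.0, limma-voom 3.58.1 with and without sample weights, other terms, batch 1 alone, leaving out doubtful libraries and leaving out each library. The code was tested on simulated data. Some genes are not reported here.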

Additional observations from a re-analysis of the deposited data

Results flagged for a closer look

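Scel in Control 2 stood apart from the other Controls at 2.09 CPM, where the other 4 lay between 0 and 0.462 CPM; its gap to the nearest was 0.779 of the group's range, above the 0.71 that Dixon's test allows for 5 libraries. It rests on 16 reads in the library with the highest mitochondrial share (67.5%). The 6 sets examined were the 3 genes in MEF2A and in Control. Chance flags about 1 in 20 of such sets, so at least 1 flag among 6 is likelier than that.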

How the results depend on the processing

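In YAP5SA_MEF2A against MEF2A, Scel kept its direction and its call under all 30 alternatives, between 5.22 and 5.99 with each library left out. Cemip lost its call under the replicate block (6.92) and without Controls 1 and 2 and YAP5SA 3 (6.22), and ranged from 6.60 to 8.19 with each library left out. Prss27 lost it with library totals as the scale (5.18), and ranged from 4.40 to 5.17 with each library left out. The 417 calls became 1103 with no filter, 1058 with DESeq2, 4168 with sample weights, 207 with the replicate block, 2523 with only these 2 groups and 644 without Controls 1 and 2, and 90 to 672 with each library left out. The share of calls that were higher, 69.5%, was 53.2% with DESeq2, 53.3% with sample weights, 48.1% with only these 2 groups, 81.6% with the block and 99.3% with library totals, which moved the median of all genes to 0.67 (log2).

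In YAP5SA against Control, the 1773 calls became 2951 with DESeq2, 938 with the replicate block, 702 with only these 2 groups and 75 without Controls 1 and 2 and YAP5SA 3, and 544 (without YAP5SA 3), 692 (YAP5SA 1) and 2998 (YAP5SA 2) at the extremes of leaving out 1 library. Library totals moved the median of all genes to 0.69 and the share higher from 57.7% to 98.1%. Scel was 7.42 with library totals, 8.25 without Controls 1 and 2 and YAP5SA 3, and 6.32 to 7.64 with each library left out. Cemip was 7.56 with a sex term, 3.20 without those 3 libraries, and 5.79 to 7.17 with each left out. Prss27 was 5.53 with library totals, 5.66 with DESeq2, 4.56 with no batch term, 5.87 with the replicate block, 6.02 with only these 2 groups, 6.30 with a sex term, 3.85 without Controls 1 and 2, 3.60 without those 3 libraries, and 4.54 to 5.91 with each left out; its 12.2 in batch 1 alone is no fold, since both Controls there were at 0. No result was reversed, and the cause of these shifts was not tested. Whether replicate numbers pair the libraries could not be decided from the counts. Same-numbered deviations from group means correlated at -0.11 and -0.02 in YAP5SA_MEF2A and MEF2A and at -0.09, -0.20 and -0.34 in YAP5SA and Control. No library correlated best with its own number. Deviations within groups this small are tied to each other, so these correlations neither show nor exclude pairing. Where 1 YAP5SA_MEF2A library was left out, the other was assumed to vary like the other groups. Depth limits the 3 genes where they are low, at 0 to 121 reads per library.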
